A study of Homo sapiens with 24 samples.

Results

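Mitomycin C is a drug that bladder cancer patients receive inside the bladder, and T24 is a cell line established from a human bladder carcinoma. The libraries described here are the 6 T24 libraries of a series of 24, chosen by their labelled cell line: 3 from untreated cells and 3 from cells given 75 µM mitomycin C for 1 h, with RNA taken 15 h after the treatment. Polyadenylated RNA was measured with and without the drug in T24 and in 3 further bladder cancer lines, 5637, TCC-SUP and CLS-439, with 3 untreated and 3 treated cultures of every line. The treatment label spells the drug "MCC", while the protocol names mitomycin C as MMC, and the labels are read as that drug here. The cultures are numbered 1, 3 and 4 and are called biological replicates, with nothing said of shared days or flasks. The p-values and standard errors come from a fit over all 24 libraries. They measure the spread between cultures pooled over the 8 groups of line and treatment, CLS-439 included, not that of the T24 cultures alone. Values for single libraries are given below in the order replicate 1, 3 and 4, in counts per 1000000 counted reads (CPM), with library totals scaled by TMM, a trimmed mean of gene ratios, and without correction for gene length.

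After enzymatic reduction mitomycin C alkylates guanines, and its most toxic product joins both strands of DNA. Such a crosslink stops both replication forks and RNA polymerase, and cells answer with checkpoint signalling, Fanconi anaemia repair and, in many cell types, stress kinase and NF-kB signalling. T24 is known for an activating HRAS mutation and for lacking normal p53, and as a line grown in culture it holds no stroma, vessels or immune cells.

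The untreated libraries held 24150912 to 28821665 counted reads and the treated ones 19550429 to 21799431. Of 21 urothelial and epithelial markers, 9 reached 1 CPM in a T24 group, among them the keratin genes KRT7, KRT8, KRT18 and KRT19 with GATA3, PPARG and FOXA1, while UPK3A and GRHL2 had no read in any library and CDH1 stayed under 1 CPM. The whole list summed to 5109 to 6592 CPM in untreated and 3474 to 6809 CPM in treated libraries. The mesenchymal list reached 1 CPM for 12 of 14 genes, TWIST1 and TWIST2 being at 0, and summed to 7416 to 10385 and 5659.7 to 7781 CPM. The 14 leukocyte markers summed to 1.01 to 1.57 CPM in untreated and 1.74 to 2.39 CPM in treated libraries, the 10 fibroblast markers to 6.97 to 9.97 and 11.4 to 15.3 CPM, and the 7 endothelial markers to 5.80 to 8.14 and 2.11 to 9.05 CPM, nearly all of it from CDH5. DCN, CLDN5 and 5 leukocyte markers (CD3E, CD2, MS4A1, NKG7 and FCGR3A) had no read, and the part of these marker levels in the results was not tested. In bulk RNA fewer cells of one kind and less RNA per cell cannot be told apart. Treated replicate 1 stood apart: its counts differed from treated replicates 3 and 4 by a chi-square of 116 and 65.5 per gene, against 19.3 between replicates 3 and 4 and 9.27 to 42.4 among the untreated libraries. Results that turn on it are given with and without it.

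Mitomycin C changed the expression of a large part of the genes that T24 expresses, with a narrow majority of the changes under 2-fold. Of 20820 genes tested with edgeR's quasi-likelihood test 5947 (28.6%) were called, of which 3162 (15.2%) were higher and 2785 (13.4%) were lower at an adjusted p under 0.05, the threshold for every call below. Of the rises 1629 and of the falls 1695 were under 2-fold, with a median log2 fold change of 0.97 for all rises and -0.86 for all falls. Called changes of at least 2-fold took 7.36% (higher) and 5.24% (lower) of the genes tested. Changes of at least 4-fold numbered 499 and 197, and 185 and 51 at least 8-fold. The rising genes had a median untreated level of 10.8 CPM and the falling genes one of 38.2 CPM. That level is also the base of the change, so these medians are not independent of the direction called. The treated and untreated libraries did not overlap for 2734 (86.5%) of the rising and 2559 (91.9%) of the falling genes. These genes were called from the same libraries, so their separation is no separate support for the calls. Over all genes tested, 18.0% lay wholly above and 16.6% wholly below the untreated libraries. Among the 13074 genes at a T24 mean of at least 1 CPM, 39.0% were called, 19.7% higher and 19.3% lower (7.3% and 6.39% by at least 2-fold), and 22.1% lay wholly above and 22.3% wholly below the untreated libraries. The other 7977 were not called, and for 2107 of these the 95% confidence interval lay within 0.5 log2 units of no change. Most members of most gene lists below are at 1 CPM or more, so 19.7% and 19.3% are the closer shares for their counts. Fitted on the 6 T24 libraries alone, whose own spread then sets the p-values, the calls came to 1907 higher and 1663 lower.

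**Figure D1:**
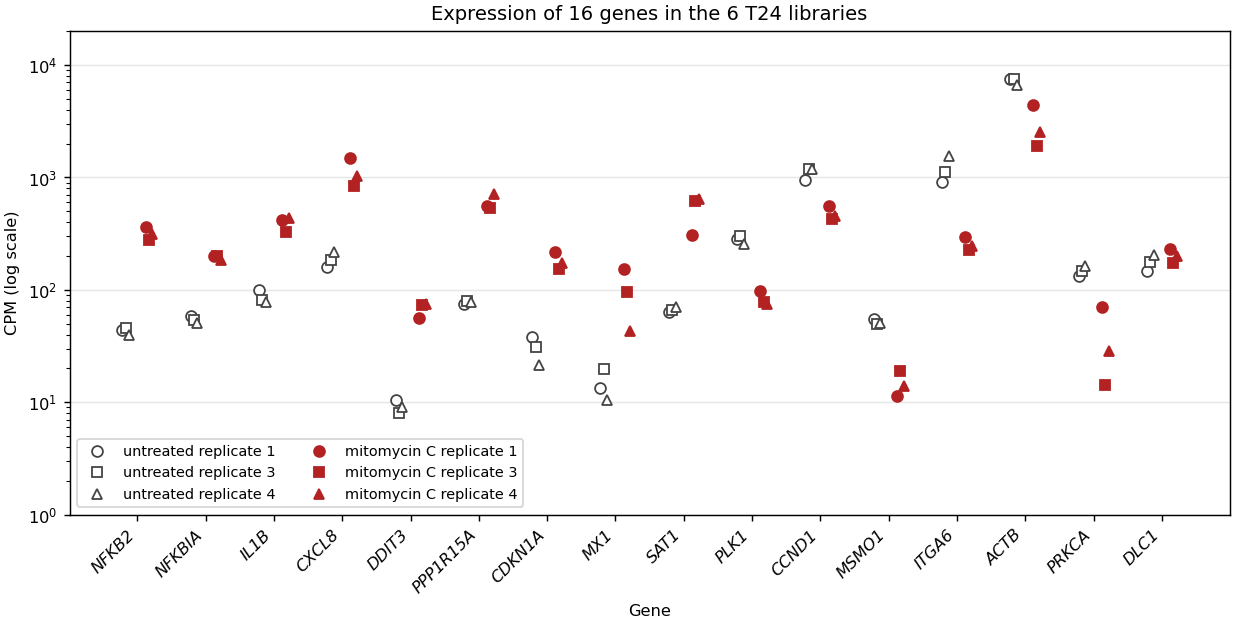
Expression of 16 genes in each of the 6 T24 libraries, in CPM on a log axis; open symbols are untreated and filled symbols treated cultures, and the shape gives the replicate number. Treated points lie apart from untreated points for every gene shown except DLC1, and treated replicate 1 is the treated culture nearest to the untreated ones for PRKCA and ACTB.

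Among the genes with the most abundant RNA more fell than rose. Of the 77 genes with a T24 mean from 1000 CPM upwards, 29 were lower and 2 higher, and the 100 most abundant genes took 20.1% ± 0.78 (SD, n = 3) of the reads of untreated and 16.96% ± 0.93 of treated libraries. No treated library reached the untreated range (exact two-sided permutation test p = 0.1, the smallest that 3 against 3 allows). ACTB, the cytoplasmic beta-actin, was at 7511, 7579 and 6670.4 CPM untreated and 4384, 1890.1 and 2519 CPM treated, and ACTG1, the gamma-actin, at 5003, 4909.9 and 5045 and 3201, 1534 and 2139 CPM (-1.31 ± 0.21 SE on the log2 scale, adjusted p = 4.64e-05 and -1.12 ± 0.18 SE on the log2 scale, adjusted p = 5.62e-05). HSPA8, the constitutive HSP70 chaperone, was at 3233, 3813 and 4411 CPM untreated and 1064, 1724 and 1799 CPM treated (log2 fold change -1.32 ± 0.17 SE, adjusted p = 3.47e-06). NPM1, a nucleolar chaperone of ribosome assembly, was at 2129.8, 2140.2 and 2258 CPM untreated and 896, 1016 and 1021 CPM treated (log2 fold change -1.15 ± 0.13 SE, adjusted p = 4.39e-07). All of these were lower in each treated library than in any untreated one, as were CAV1 (-1.44), the scaffold of caveolae, HNRNPA2B1 (-1.04), an RNA-binding protein, and the integrin subunits ITGA6 (-2.21) and ITGA3 (-1.06). In the other direction, abundant genes that at least doubled included LAMB3 (log2 fold change 1.07), a laminin-332 chain, SLC3A2 (1.15), the heavy chain of amino acid exchangers, ETS1 (1.19), a RAS-responsive transcription factor, and POLR2A (1.09), the catalytic subunit of RNA polymerase II.

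NF-kB dimers are held in the cytoplasm by IkB proteins, enter the nucleus when those are degraded, and then switch on both inflammatory genes and their own inhibitors. Of 23 genes for NF-kB subunits, feedback inhibitors and upstream kinases, 20 rose and 0 fell, against 15.2% and 13.4% of all genes tested. The median log2 fold change was 1.34, against 0.00 for all genes, a value that TMM scaling holds near 0. Subunit and inhibitor genes both rose. NFKB2, the precursor of the p52 subunit, was at 43.9, 45.6 and 39.5 CPM untreated and 365, 276 and 314 CPM treated (log2 fold change 2.89 ± 0.16 SE, adjusted p = 9.95e-12). RELA, the p65 subunit, was at 199, 209 and 181 CPM untreated and 366, 339 and 368 CPM treated (log2 fold change 0.87 ± 0.12 SE, adjusted p = 9.96e-06). NFKBIA, the inhibitor that the same factor induces, was at 58.9, 53.4 and 50.2 CPM untreated and 202, 202 and 183 CPM treated (log2 fold change 1.85 ± 0.14 SE, adjusted p = 7.28e-10). In each of the 3 the treated libraries lay above all untreated ones, and the spread among treated libraries was small beside the shift. The kinase genes MAP3K14, IKBKB and CHUK, which act above NF-kB, were the 3 not called.

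Several promoters of NF-kB and cytokine genes hold a match to a kappaB motif, and 3 are shown here to place the sequence beside the values. Each line gives the 250 bases before the RefSeq start (GRCh38.p14), 5′ to 3′ on the gene's strand, with matches on either strand to GGG, any 2 bases, then TTTCC in capitals. IL6 (a cytokine of acute inflammation, chr7:22726950-22727199, + strand) holds its match 73 to 64 bases before the start, NFKBIA (chr14:35404750-35404999, - strand) 81 to 72, and CXCL1 (a neutrophil chemokine, chr4:73869143-73869392, + strand) 79 to 70.
IL6: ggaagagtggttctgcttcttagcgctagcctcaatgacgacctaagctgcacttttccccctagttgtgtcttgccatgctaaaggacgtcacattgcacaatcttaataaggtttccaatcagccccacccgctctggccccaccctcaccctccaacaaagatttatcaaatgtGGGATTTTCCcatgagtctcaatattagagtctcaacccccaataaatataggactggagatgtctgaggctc
NFKBIA: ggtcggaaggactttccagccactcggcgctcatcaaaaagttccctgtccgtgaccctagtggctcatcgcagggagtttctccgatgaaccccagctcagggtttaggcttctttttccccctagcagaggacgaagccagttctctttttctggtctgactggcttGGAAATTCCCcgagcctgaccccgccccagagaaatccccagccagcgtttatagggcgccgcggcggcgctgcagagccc
CXCL1: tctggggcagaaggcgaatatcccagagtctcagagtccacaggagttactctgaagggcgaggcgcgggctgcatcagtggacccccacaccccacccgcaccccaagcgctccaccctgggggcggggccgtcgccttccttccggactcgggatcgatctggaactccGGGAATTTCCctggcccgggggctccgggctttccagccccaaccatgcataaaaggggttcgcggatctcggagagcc
Over all listed starts, with 250 bases before and 50 after each, 10 of 19 NF-kB list genes and 8 of 21 cytokine genes with a RefSeq promoter held this motif, against 2.33% of 27305 genes. A match is only those letters in that window. It was held by 10 of 17 rising and 0 of 2 other NF-kB list genes and by 7 of 18 rising and 1 of 3 other cytokine genes, too few genes without a rise to compare. The cytokine gene with the motif and without a call is CXCL1, printed above, at 230.0, 242 and 218 CPM untreated and 413, 150.5 and 260.5 CPM treated (log2 fold change 0.25 ± 0.32 SE, adjusted p = 0.623), with overlapping groups and treated replicate 3 below all untreated ones.

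Secreted signals rose widely. Of 29 cytokine and chemokine genes tested, 21 rose and 2 fell (72.4% and 6.9%), against 15.2% and 13.4% of all genes tested. The list's median log2 fold change was 1.68. IL6 was at 4.301, 4.34 and 3.999 CPM untreated and 247, 313 and 269 CPM treated (log2 fold change 6.03 ± 0.39 SE, adjusted p = 1.17e-10). IL1A, an alarmin cytokine, was at 16.8, 8.73 and 9.02 CPM untreated and 128, 59.2 and 68.3 CPM treated (log2 fold change 2.88 ± 0.31 SE, adjusted p = 4.99e-07). IL1B, its secreted relative, was at 100.5, 81.2 and 77.8 CPM untreated and 419, 326 and 432 CPM treated (log2 fold change 2.18 ± 0.23 SE, adjusted p = 5.78e-07). All 3 were higher in every treated library, with treated replicate 1 the highest treated culture for IL1A and the lowest for IL6. The neutrophil chemokine CXCL8 went from 161, 184 and 215 to 1492, 846 and 1040.1 CPM, and CXCL3 from 2.83, 4.94 and 6.905 to 35.3, 37.4 and 66.4 CPM (2.59 ± 0.36 SE on the log2 scale, adjusted p = 1.41e-05 and 3.24 ± 0.32 SE on the log2 scale, adjusted p = 9.55e-08). TNF, the founding NF-kB-inducing cytokine, was at 2.01, 2.24 and 1.92 CPM untreated and 20.7, 24.01 and 22.6 CPM treated (log2 fold change 3.44 ± 0.32 SE, adjusted p = 2.56e-08). CSF2, a granulocyte-macrophage growth factor, and CCL20, a chemokine for lymphocytes and dendritic cells, were under 1 CPM untreated and reached 12.6, 4.91 and 11.5 and 4.601, 2.37 and 3.99 CPM (log2 fold changes 5.44 ± 0.85 and 5.39 ± 0.67 SE). Groups overlapped for none of these genes. LIF, a cytokine that signals through the IL6 co-receptor, and IL32 rose by 1.19 ± 0.22 and 3.60 ± 0.25 (SE). The 2 that fell were CSF3 and IL7, named after their values were seen, and CCL2, IL18, IL33, IL15 and TNFSF10 were not called.

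AP-1 dimers of FOS, JUN, ATF and MAF proteins and the EGR factors are the early transcriptional output of MAP kinase signalling. Of 14 AP-1 genes 12 rose and 0 fell (median 1.11), and of 27 further immediate-early genes 19 rose and 0 fell (median 1.24). The shares of all genes at 1 CPM or more were 19.7% higher and 19.3% lower. FOS was at 2.32, 1.599 and 1.32 CPM untreated and 31.2, 17.3 and 16.5 CPM treated (log2 fold change 3.62 ± 0.46 SE, adjusted p = 3.69e-06). JUNB, a JUN relative, was at 11.04, 9.23 and 10.6 CPM untreated and 88.9, 60.9 and 75.6 CPM treated (log2 fold change 2.86 ± 0.30 SE, adjusted p = 2.09e-07). ATF3, a stress-induced repressor, was at 3.02, 3.15 and 2.08 CPM untreated and 136, 163 and 96.9 CPM treated (log2 fold change 5.59 ± 0.33 SE, adjusted p = 2.16e-11). The treated libraries lay above the untreated ones in each. FOSL1, the FOS relative that RAS-driven cells express at high level, was at 525, 623 and 538 CPM untreated and 765, 533 and 610.4 CPM treated (log2 fold change 0.18 ± 0.28 SE, adjusted p = 0.702), with overlapping groups and a 95% interval of -0.40 to 0.76. JUN itself was at 139, 143 and 167 CPM untreated and 343, 178 and 218 CPM treated (log2 fold change 0.72 ± 0.20 SE, adjusted p = 0.00743), and this call ended without treated replicate 1 and in the fit on T24 alone (adjusted p 0.000217 to 0.0744 over the alternative fits).

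EGR1 shows how far single cultures can differ. It was at 31.8, 6.81 and 6.34 CPM untreated and 247, 46.3 and 76.6 CPM treated (log2 fold change 3.04 ± 0.64 SE, adjusted p = 0.00114), and replicate 1 held the highest level in both the untreated and the treated group, although the groups did not overlap. Its promoter (chr5:138465229-138465478, + strand, RefSeq, GRCh38.p14), printed because this gene is the textbook target of serum response factor, holds 2 matches to the CArG box, in capitals, 105 to 96 and 83 to 74 bases before the start.
EGR1: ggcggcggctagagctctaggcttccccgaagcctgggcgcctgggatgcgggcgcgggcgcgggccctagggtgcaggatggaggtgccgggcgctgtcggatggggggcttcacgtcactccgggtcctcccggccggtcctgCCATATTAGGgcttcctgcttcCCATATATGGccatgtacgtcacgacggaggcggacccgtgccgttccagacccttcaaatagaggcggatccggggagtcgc
A CArG box was found in 3 of 22 immediate-early genes with a RefSeq promoter (EGR1, EGR2 and SRF) and in 1.6% of the genes searched. It was held by 2 of 15 rising and 1 of 7 other members, too few to compare. Of the other immediate-early genes, KLF4, a factor linked to growth arrest, was at 3.68, 3.52 and 2.19 CPM untreated and 21.8, 14.4 and 10.8 CPM treated (log2 fold change 2.32 ± 0.26 SE, adjusted p = 4.24e-07). BTG2, an antiproliferative gene, was at 3.45, 4.16 and 3.36 CPM untreated and 19.5, 26.3 and 18.1 CPM treated (log2 fold change 2.55 ± 0.26 SE, adjusted p = 1.72e-07). Neither gene's groups overlapped. NR4A3, an orphan nuclear receptor, rose from 0.465, 0.503 and 0.415 to 1.89, 7.28 and 3.74 CPM. Genes that shut MAP kinase signalling down changed unevenly: of 17 DUSP, Sprouty and SPRED genes 7 rose and 2 fell (41.2% and 11.8%). The shares of all genes at 1 CPM or more were 19.7% and 19.3%. DUSP10, which dephosphorylates p38 and JNK, was at 0.93, 1.19 and 0.83 CPM untreated and 11.3, 9.55 and 10.6 CPM treated (log2 fold change 3.42 ± 0.20 SE, adjusted p = 9.99e-12). DUSP8 (3.88 ± 0.38) and DUSP16 (1.73 ± 0.20), of the same substrate class, rose too, and DUSP1 rose less (0.97 ± 0.17). DUSP6, the ERK-specific phosphatase, was at 70.8, 50.7 and 50.7 CPM untreated and 94.4, 73.04 and 84.6 CPM treated (log2 fold change 0.55 ± 0.26 SE, adjusted p = 0.118), not called although the groups did not overlap. SPRY1, an inhibitor of receptor to RAS signalling, fell by 1.53 on the log2 scale.

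The integrated stress response acts through ATF4, which raises genes for amino acid supply and, if stress lasts, for cell death. Of 29 genes of this response 21 rose and 1 (the amino acid transporter SLC38A2) fell, with a median of 1.15. That is 72.4% and 3.45%, against 19.7% and 19.3% of all genes at 1 CPM or more. DDIT3, the CHOP transcription factor, was at 10.5, 7.95 and 9.13 CPM untreated and 56.4, 73.1 and 75.1 CPM treated (log2 fold change 2.89 ± 0.17 SE, adjusted p = 1.09e-11). PPP1R15A, a phosphatase subunit that restores translation, was at 74.2, 80.2 and 77.9 CPM untreated and 559, 534 and 717 CPM treated (log2 fold change 2.96 ± 0.16 SE, adjusted p = 8.54e-12). CHAC1, which degrades glutathione, was at 6.08, 5.35 and 4.23 CPM untreated and 95.8, 33.2 and 45.8 CPM treated (log2 fold change 3.48 ± 0.33 SE, adjusted p = 4.26e-08). None of the 3 had overlapping groups, and treated replicate 1 held the lowest DDIT3 and the highest CHAC1 level of the treated cultures. ASNS, asparagine synthetase, rose from 0.542, 0.366 and 0.415 to 4.71, 9.19 and 7.18 CPM, and SESN2, a brake on mTORC1, from 19.6, 18.96 and 12.98 to 103, 54.8 and 68.6 CPM. ATF4 itself was at 393, 358 and 309 CPM untreated and 672, 408 and 500.1 CPM treated (log2 fold change 0.58 ± 0.18 SE, adjusted p = 0.0184), and its call ended without treated replicate 1 or without untreated replicate 3 or 4 (adjusted p 0.0022 to 0.124 over the alternative fits). TRIB3, a pseudokinase that damps ATF4, was at 114, 106 and 87.2 CPM untreated and 389, 119 and 194 CPM treated (log2 fold change 1.19 ± 0.30 SE, adjusted p = 0.00419), a call that ended without treated replicate 1 (adjusted p 9.03e-10 to 0.0686 over the alternative fits).

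Of the 20 cytosolic tRNA synthetase genes 7 rose and 3 fell (35.0% and 15.0%), against 19.7% and 19.3% of all genes at 1 CPM or more. CARS (cysteine) was at 97.2, 97.7 and 89.3 CPM untreated and 264, 177 and 205 CPM treated (log2 fold change 1.19 ± 0.14 SE, adjusted p = 1.11e-06). SARS (serine), WARS (tryptophan), YARS (tyrosine) and GARS (glycine) rose by 0.88 ± 0.11, 1.01 ± 0.15, 0.76 ± 0.12 and 0.52 ± 0.10 (log2, SE), all without overlap. IARS (isoleucine) was at 235, 252 and 334 CPM untreated and 227, 314 and 272 CPM treated (log2 fold change -0.02 ± 0.12 SE, adjusted p = 1), with a 95% interval of -0.28 to 0.25. The 3 falls came to 1 without untreated replicate 4 and in the fit on T24 alone.

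Of 22 genes of the unfolded protein response 4 rose and 7 fell, and of 18 heat shock genes 1 rose and 6 fell. Of all genes tested 15.2% were higher and 13.4% lower, and of those at 1 CPM or more 19.7% and 19.3%. Nearly all members of both lists are at 1 CPM or more. In both lists 11 genes were not called. HSPA5, the main chaperone of the endoplasmic reticulum, was at 789, 819.9 and 889 CPM untreated and 573, 569.9 and 507 CPM treated (log2 fold change -0.60 ± 0.16 SE, adjusted p = 0.0064). CALR, calreticulin, was at 1259.7, 1235 and 1186 CPM untreated and 946, 674 and 648 CPM treated (log2 fold change -0.70 ± 0.18 SE, adjusted p = 0.0039). Both were lower in each treated library. The sensor ERN1 and the transcription factor XBP1, which that sensor activates by splicing, rose, ERN1 from 8.29, 10.3 and 11.1 to 62.03, 83.7 and 95.2 CPM and XBP1 from 98.9, 108 and 94.4 to 278, 179.7 and 205 CPM (3.02 ± 0.20 SE on the log2 scale, adjusted p = 1.09e-10 and 1.14 ± 0.15 SE on the log2 scale, adjusted p = 6.88e-06). Among heat shock genes, HSPD1 and HSPE1, which form the mitochondrial chaperonin, fell by 0.91 and 0.66 on the log2 scale. HSPA1A, the inducible HSP70, was at 39.4, 42.5 and 38.4 CPM untreated and 23.9, 50.1 and 42.5 CPM treated (log2 fold change -0.04 ± 0.25 SE, adjusted p = 0.975), with overlapping groups. The unfolded protein response falls came to 4 without treated replicate 4 and to 3 in the fit on T24 alone.

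**Figure D2:**
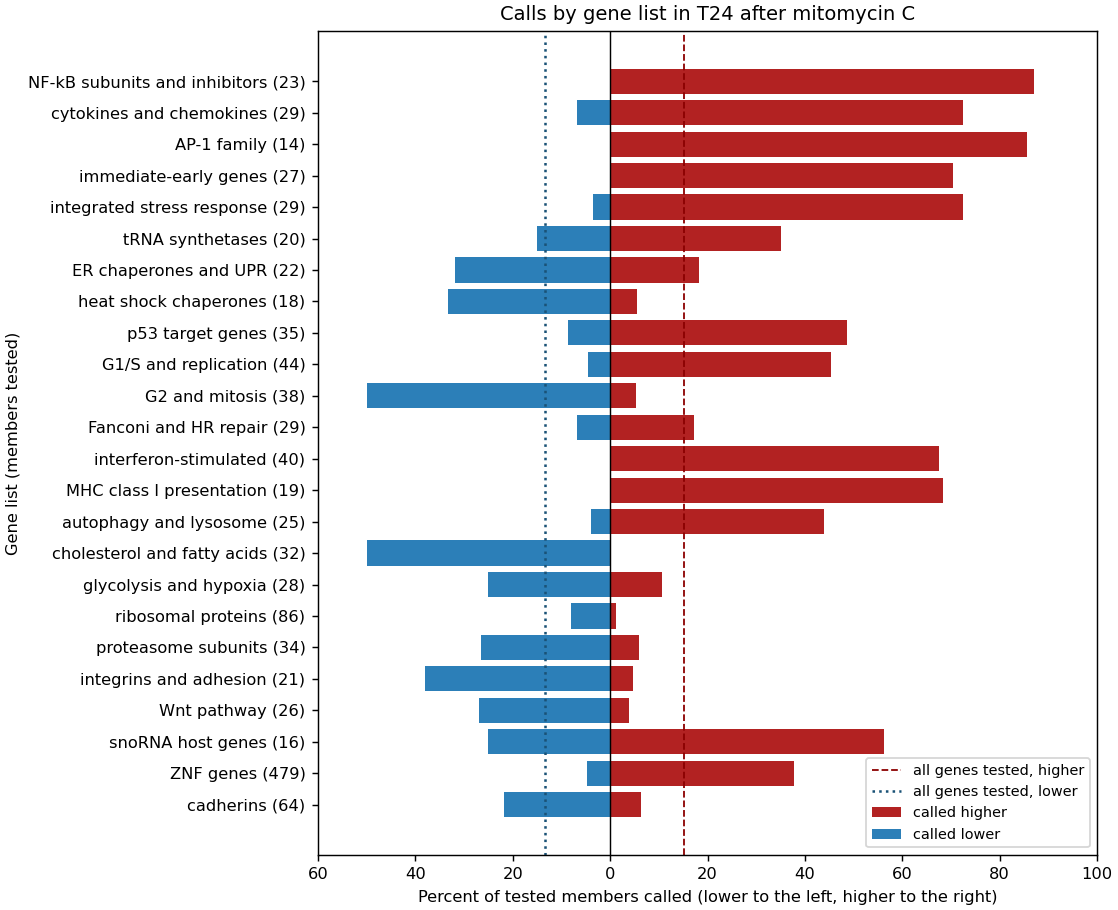
Percent of the tested members of 24 gene lists that were called higher (bars to the right) or lower (bars to the left) in T24; the dashed and dotted lines mark the same percentages over all genes tested, 15.2% and 13.4%. For genes at a T24 mean of at least 1 CPM, not drawn, the percentages are 19.7% and 19.3%. The NF-kB, AP-1, cytokine and integrated stress response lists lie far to the right, while the lipid synthesis and mitosis lists reach 50% on the left.

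Of 35 tested genes known as p53 targets, 17 rose and 3 fell (48.6% and 8.57%, median 0.54). Among all genes at 1 CPM or more 19.7% were higher and 19.3% lower. CDKN1A, the CDK inhibitor p21, was at 38.2, 31.1 and 21.6 CPM untreated and 218, 154 and 175 CPM treated (log2 fold change 2.59 ± 0.21 SE, adjusted p = 4.61e-09). GADD45A, a stress sensor that restrains CDK1, was at 76.5, 74.8 and 91.9 CPM untreated and 689, 655 and 822 CPM treated (log2 fold change 3.15 ± 0.16 SE, adjusted p = 2.19e-12). BBC3, the BH3-only protein PUMA, was at 2.67, 1.92 and 1.32 CPM untreated and 12.5, 7.05 and 6.23 CPM treated (log2 fold change 2.12 ± 0.31 SE, adjusted p = 1.68e-05). These 3 were higher in every treated library. PMAIP1 (NOXA, another BH3-only protein), TNFRSF10B (a TRAIL receptor), XPC (a damage sensor of excision repair) and GDF15 (a secreted stress cytokine) rose by 1.03 ± 0.20, 0.90 ± 0.13, 1.17 ± 0.21 and 2.01 ± 0.43 (log2, SE). The 15 genes not called included MDM2, BAX, FAS, RRM2B, DDB2, ZMAT3 and SESN1. Several of the called genes stand in other lists as well, SESN2 among the stress response genes and BTG2 among the immediate-early genes. Of the other CDK inhibitors CDKN2B (p15) rose from 4.61, 2.79 and 2.57 to 11.3, 29.1 and 17.3 CPM, and CDKN1B (p27) was at 35.4, 27.4 and 25.1 CPM untreated and 28.1, 27.02 and 22.4 CPM treated (log2 fold change -0.18 ± 0.19 SE, adjusted p = 0.519).

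The cell cycle lists went in opposite directions. Of 44 G1/S and replication genes 20 rose and 2 fell (median 0.24), and of 38 G2 and mitosis genes 2 rose and 19 fell (median -0.57). Among all genes at 1 CPM or more 19.7% were higher and 19.3% lower. CDC6, which loads the replicative helicase, was at 119, 151 and 184 CPM untreated and 209.7, 407 and 370.0 CPM treated (log2 fold change 1.12 ± 0.18 SE, adjusted p = 3.85e-05). CCNE1, cyclin E1, was at 18.3, 20.5 and 21.3 CPM untreated and 30.4, 55.5 and 47.4 CPM treated (log2 fold change 1.15 ± 0.16 SE, adjusted p = 1.08e-05). E2F8, a repressor that E2F activity itself induces, was at 42.8, 51.7 and 65.7 CPM untreated and 79.5, 207 and 176 CPM treated (log2 fold change 1.53 ± 0.23 SE, adjusted p = 2e-05). Treated libraries lay above untreated ones in all 3, with replicate 1 the lowest of the treated. CCND1, cyclin D1, went the other way, at 959, 1181 and 1197 CPM untreated and 558, 429.9 and 451 CPM treated (log2 fold change -1.21 ± 0.14 SE, adjusted p = 1.25e-06). PCNA, the sliding clamp, was at 486, 542 and 563 CPM untreated and 334, 529 and 464 CPM treated (log2 fold change -0.26 ± 0.12 SE, adjusted p = 0.125), with overlapping groups and a call without treated replicate 3 (adjusted p 0.0235 to 0.63 over the alternative fits).

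Of the mitotic genes PLK1, a kinase of mitotic entry, was at 285, 299.6 and 255 CPM untreated and 97.9, 78.1 and 74.95 CPM treated (log2 fold change -1.74 ± 0.15 SE, adjusted p = 5.65e-09). CDC20, an activator of the anaphase-promoting complex, was at 494, 581 and 477 CPM untreated and 259, 156 and 174 CPM treated (log2 fold change -1.40 ± 0.15 SE, adjusted p = 2.82e-07). AURKA, a centrosomal kinase, was at 264, 286 and 330.4 CPM untreated and 118, 159 and 146 CPM treated (log2 fold change -1.06 ± 0.12 SE, adjusted p = 8.62e-07). The groups did not overlap for any of these. The spindle proteins HMMR and ASPM and the kinetochore protein DLGAP5 fell furthest in treated replicate 1: HMMR went from 146, 136 and 148 to 15.9, 58.5 and 37.2 CPM, and DLGAP5 from 202, 204 and 235 to 33.99, 94.9 and 74.2 CPM. The list's median in the single treated libraries was -1.04, -0.32 and -0.51. CDK1, the mitotic kinase, was at 195, 166 and 143 CPM untreated and 106, 139 and 125 CPM treated (log2 fold change -0.45 ± 0.14 SE, adjusted p = 0.0154), a call that ended without treated replicate 1 or untreated replicate 1 and in the fit on T24 alone (adjusted p 0.00772 to 0.104 over the alternative fits). MKI67, a proliferation marker, was at 819.7, 877 and 1272 CPM untreated and 539, 1336 and 920.2 CPM treated (log2 fold change -0.09 ± 0.22 SE, adjusted p = 0.854), with overlapping groups. The list's 19 falls became 12 in the fit on T24 alone.

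Many mitotic promoters share a short element, the cell cycle genes homology region. The PLK1 promoter (chr16:23678639-23678888, + strand, RefSeq, GRCh38.p14) is shown as an example, with its match to TTTGAA in capitals 29 to 24 bases before the start.
PLK1: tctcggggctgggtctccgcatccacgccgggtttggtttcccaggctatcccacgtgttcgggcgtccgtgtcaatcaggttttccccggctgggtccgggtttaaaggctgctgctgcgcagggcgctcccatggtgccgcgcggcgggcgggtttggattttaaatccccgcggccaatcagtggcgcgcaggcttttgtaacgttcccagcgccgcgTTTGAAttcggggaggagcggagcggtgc
This 6-letter motif was found on either strand in 21 of 31 mitotic genes with a RefSeq promoter and in 18.2% of the genes searched. It was about as frequent among members that fell (11 of 16) as among the others (10 of 15). CCAAT was found in 27 of the 31 and in 39.7% of the genes searched.

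Crosslink repair draws on Fanconi anaemia, excision repair and translesion genes. Of 29 Fanconi anaemia and homologous recombination genes 5 rose and 2 fell. Of 20 excision repair genes 2 rose and 4 fell, and of 14 translesion genes 1 rose and 2 fell. Of all genes tested 28.6% were called, and of those at 1 CPM or more 39.0%, with 19.7% higher and 19.3% lower. Without treated replicate 1 the counts of these lists that rose and fell came to 11 and 3, to 4 and 5, and to 3 and 2. FANCD2, the protein that marks a stalled crosslink, was at 47.9, 52.6 and 71.6 CPM untreated and 49.5, 64.1 and 60.1 CPM treated (log2 fold change 0.01 ± 0.16 SE, adjusted p = 1), with a 95% interval of -0.32 to 0.35. Its groups overlapped. RAD54L, a DNA motor protein of recombination, was at 70.2, 77.5 and 70.3 CPM untreated and 128, 166 and 163 CPM treated (log2 fold change 1.07 ± 0.12 SE, adjusted p = 5.62e-07), without overlap. XRCC3, a recombination protein, and MAD2L2, a subunit of polymerase zeta, rose by 0.68 ± 0.14 and 0.85 ± 0.12 (log2, SE). RAD51B, of the same pathway and a gene of 910.4 kb, fell from 5.696, 3.98 and 6.04 to 1.57, 0.819 and 1.496 CPM. HLTF, a fork remodeller, and NBN, of the MRN complex, fell by 1.00 and 0.89. ERCC1, of the crosslink-cutting nuclease, was at 127, 119 and 114 CPM untreated and 149.8, 80.4 and 103 CPM treated (log2 fold change -0.12 ± 0.16 SE, adjusted p = 0.649), with a call without treated replicate 1 (adjusted p 0.0346 to 0.918 over the alternative fits). The 4 excision repair falls came to 2 without treated replicate 4, without untreated replicate 4, with no count filter or in the fit on T24 alone. Of 22 checkpoint genes 6 rose and 5 fell, and CHEK1, the replication checkpoint kinase, was at 69.7, 68.3 and 85.8 CPM untreated and 46.9, 90.8 and 77.1 CPM treated (log2 fold change -0.06 ± 0.18 SE, adjusted p = 0.895). The 6 rises came to 2 without treated replicate 3, without untreated replicate 1 or in the fit on T24 alone, and to 3 without treated replicate 4 or untreated replicate 3. The 5 falls came to 3 without treated replicate 1 or untreated replicate 4, and to 1 in the fit on T24 alone.

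Among cell death genes, 8 of 20 pro-apoptotic genes rose and 1 fell, and 3 of 9 anti-apoptotic genes rose and 1 fell. At 1 CPM or more, 19.7% of all genes were higher and 19.3% lower. BIK, a BH3-only protein, was at 0.387, 0.228 and 0.491 CPM untreated and 4.17, 1.73 and 2.14 CPM treated (log2 fold change 2.81 ± 0.34 SE, adjusted p = 1.37e-06). BMF and BCL2L11 (BIM), of the same class, went from 1.16, 0.685 and 0.491 to 2.06, 6.69 and 3.34 CPM and from 11.7, 11.5 and 11.9 to 14.8, 53.4 and 34.2 CPM, with treated replicate 1 the lowest of the treated in both. BIRC3, an inhibitor of apoptosis that NF-kB induces, was at 6.94, 7.68 and 14.2 CPM untreated and 40.2, 55.03 and 69.4 CPM treated (log2 fold change 2.51 ± 0.29 SE, adjusted p = 9.93e-07). BCL2A1, an NF-kB-induced BCL2 relative, rose by 1.70 ± 0.35 (log2, SE). The constitutive survival genes BCL2L1 and MCL1 were at 396, 382 and 328 CPM untreated and 523, 248 and 304 CPM treated (log2 fold change -0.04 ± 0.19 SE, adjusted p = 0.954) and at 316, 266 and 279 CPM untreated and 253, 255 and 240.4 CPM treated (log2 fold change -0.20 ± 0.12 SE, adjusted p = 0.209). TNFRSF9, a costimulatory receptor of the TNF family, was under 1 CPM untreated and at 6.44, 2.41 and 3.24 CPM treated. Of 18 death receptor genes 5 rose and 2 fell. The 5 rises came to 3 without treated replicate 3 and in the fit on T24 alone. The 2 falls came to 0 in both of those fits, without treated replicate 4 and without the CLS-439 libraries. The anti-apoptotic fall was lost in the fit on T24 alone and with no count filter. It was also lost without untreated replicate 3 or 4 or treated replicate 4.

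Interferon-stimulated genes moved unevenly across the cultures. Of 40 tested 27 rose and 0 fell, against 19.7% and 19.3% of all genes at 1 CPM or more. The list's median was 1.09, but in treated replicates 1, 3 and 4 it was 1.51, 1.04 and 0.20. Without treated replicate 1, or without untreated replicate 4, 17 rose, and in the fit on T24 alone 15. MX1, an antiviral GTPase, was at 13.5, 19.7 and 10.4 CPM untreated and 154, 95.5 and 43.2 CPM treated (log2 fold change 2.75 ± 0.39 SE, adjusted p = 1.81e-05), above the untreated libraries in all 3 treated ones. IRF1, a transcription factor that NF-kB also induces, was at 35.4, 29.02 and 20.3 CPM untreated and 91.9, 122 and 87.97 CPM treated (log2 fold change 1.83 ± 0.16 SE, adjusted p = 1.89e-08). GBP1, a guanylate-binding protein, was at 19.99, 20.7 and 27.7 CPM untreated and 74.3, 174 and 135 CPM treated (log2 fold change 2.48 ± 0.27 SE, adjusted p = 4.03e-07). IRF1 and GBP1 did not follow the order of MX1 over the treated cultures, since replicate 3 held the highest level of both. ISG15, a ubiquitin-like modifier, was at 83.1, 63.9 and 45.9 CPM untreated and 249.2, 81.9 and 73.1 CPM treated (log2 fold change 1.07 ± 0.35 SE, adjusted p = 0.0238), with overlapping groups, and its call ended without treated replicate 1, without untreated replicate 3 or 4 and in the fit on T24 alone (adjusted p 3.7e-08 to 0.473 over the alternatives). IFIT1, a classical interferon target, was at 52.4, 37.8 and 22.6 CPM untreated and 64.3, 53.6 and 18.9 CPM treated (log2 fold change 0.28 ± 0.37 SE, adjusted p = 0.645). In the untreated cultures too, replicate 4 held the lowest level of MX1, IFIT1 and ISG15.

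Of 15 nucleic acid sensing genes 7 rose, 0 fell and 8 were not called: CGAS, the DNA sensor, was at 24.2, 30.3 and 31.2 CPM untreated and 51.97, 61.3 and 63.8 CPM treated (log2 fold change 1.05 ± 0.16 SE, adjusted p = 2.84e-05), DDX58, the RNA sensor RIG-I, rose by 1.22 ± 0.20, and TMEM173 (STING) was at 60.3, 51.8 and 37.9 CPM untreated and 98.7, 37.5 and 47.8 CPM treated (log2 fold change 0.29 ± 0.24 SE, adjusted p = 0.4). Of 19 MHC class I presentation genes 13 rose and 0 fell, where 19.7% of all genes at 1 CPM or more were higher and 19.3% lower. HLA-B was at 109, 125 and 80.3 CPM untreated and 234, 291 and 209.8 CPM treated (log2 fold change 1.23 ± 0.16 SE, adjusted p = 4.91e-06). TAP1, the peptide transporter, was at 53.4, 56.1 and 43.5 CPM untreated and 108, 119 and 106 CPM treated (log2 fold change 1.12 ± 0.16 SE, adjusted p = 1.63e-05). B2M, the invariant light chain, was at 918, 886 and 742 CPM untreated and 1242, 1331 and 1042 CPM treated (log2 fold change 0.51 ± 0.12 SE, adjusted p = 0.00348). Groups did not overlap in these, and reads of the HLA genes can be shared between near-identical copies. Of 19 ligands of NKG2D and immune checkpoints 8 rose and 2 fell: ULBP1 and ULBP2, stress ligands for natural killer cells, went from 1.705, 1.55 and 1.77 to 6.66, 9.69 and 9.67 CPM and from 21.7, 25.3 and 23.7 to 34.2, 73.6 and 64.5 CPM, while CD274 (PD-L1) was at 29.8, 30.3 and 43.3 CPM untreated and 47.9, 33.6 and 47.97 CPM treated (log2 fold change 0.32 ± 0.23 SE, adjusted p = 0.32).

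Genes of sterol and fatty acid synthesis fell or were not called. None of 32 genes rose and 16 fell, where 19.7% of all genes at 1 CPM or more were higher and 19.3% lower. The list's median was -0.57, and it was below 0 in each treated library (-0.47, -0.72 and -0.68). MSMO1, a sterol oxidase, was at 54.8, 49.9 and 51.2 CPM untreated and 11.3, 19.1 and 13.9 CPM treated (log2 fold change -1.81 ± 0.22 SE, adjusted p = 1.23e-06). INSIG1, a sterol-responsive brake on SREBP, was at 52.1, 51.8 and 44.6 CPM untreated and 17.8, 17.2 and 15.9 CPM treated (log2 fold change -1.55 ± 0.18 SE, adjusted p = 1.21e-06). FASN, fatty acid synthase, was at 449, 495 and 440.2 CPM untreated and 322, 219 and 249.8 CPM treated (log2 fold change -0.81 ± 0.17 SE, adjusted p = 0.00101). SCD and ELOVL6, which desaturate and elongate fatty acids, fell by 1.04 and 1.97. In all 5 genes the treated libraries lay below the untreated ones. The SREBP genes SREBF1 and SREBF2 were not called.

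Other metabolic lists held calls in both directions, where 19.7% of all genes at 1 CPM or more were higher and 19.3% lower. Of 28 glycolysis and hypoxia genes 3 rose and 7 fell: HK2, hexokinase 2, fell from 141, 145 and 138 to 87.3, 36.1 and 51.4 CPM, and VEGFA, the vascular growth factor, rose from 40.1, 36.97 and 26.7 to 122, 81.6 and 83.8 CPM. GAPDH was at 8277, 7692 and 6219.8 CPM untreated and 7256, 4857 and 4975 CPM treated (log2 fold change -0.38 ± 0.16 SE, adjusted p = 0.0881), with a call without treated replicate 1 or untreated replicate 4, with the replicate block and with no count filter (adjusted p 0.00784 to 0.297 over the alternatives). The 7 falls became 12 without treated replicate 1 and 4 without treated replicate 3 or 4 or untreated replicate 1 or 3. SAT1, which acetylates polyamines for export, was at 63.9, 66.3 and 70.4 CPM untreated and 307, 614 and 638 CPM treated (log2 fold change 2.96 ± 0.24 SE, adjusted p = 3.57e-09), treated replicate 1 being the lowest of the treated but above all untreated ones. TXNIP, an inhibitor of thioredoxin and glucose uptake, was at 77.5, 77.2 and 71.9 CPM untreated and 392, 286 and 292 CPM treated (log2 fold change 2.10 ± 0.20 SE, adjusted p = 6.48e-08). Of 12 genes for mitomycin-reducing enzymes and efflux pumps 3 rose and 1 fell. NQO1, a quinone reductase that activates the drug, was at 540.4, 575 and 620.1 CPM untreated and 495, 442 and 477 CPM treated (log2 fold change -0.30 ± 0.13 SE, adjusted p = 0.0869), not called although the groups did not overlap. POR, another reductase, was at 57.97, 57.4 and 51.2 CPM untreated and 76.98, 75.1 and 78.4 CPM treated (log2 fold change 0.47 ± 0.14 SE, adjusted p = 0.0155), a call lost without untreated replicate 4 and with no count filter (adjusted p 0.00262 to 0.0684 over the alternative fits). ABCC4, an efflux pump, fell from 45.4, 50.8 and 66.9 to 20.6, 9.41 and 16.9 CPM. Of 25 autophagy and lysosome genes 11 rose and 1 fell, among the rises SQSTM1 (the receptor p62, 0.96 ± 0.15), MAP1LC3B (1.28 ± 0.20) and GABARAPL1 (2.46 ± 0.25). The 11 autophagy rises came to 7 in the fit on T24 alone and to 8 without untreated replicate 1. The 1 autophagy fall was lost in the fit on T24 alone and without untreated replicate 3 or 4 or treated replicate 4. Of 34 proteasome genes 2 rose and 9 fell, of 86 ribosomal protein genes 1 rose and 7 fell, and ribosomal protein genes took 5.21% ± 0.28 of untreated and 5.20% ± 0.57 of treated reads (SD, n = 3). The 7 ribosomal protein falls became 15 without treated replicate 1 and 3 without treated replicate 4, and the 9 proteasome falls became 3 in the fit on T24 alone.

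Of 21 integrin and adhesion genes 1 rose, 8 fell (5 in the fit on T24 alone) and 12 were not called. ITGA6, the laminin-binding subunit, was at 907, 1117 and 1544 CPM untreated and 294, 228 and 247 CPM treated (log2 fold change -2.21 ± 0.20 SE, adjusted p = 2.56e-08). ITGA2, the collagen-binding subunit, was at 108, 93.9 and 114 CPM untreated and 50.99, 43.7 and 52.3 CPM treated (log2 fold change -1.11 ± 0.24 SE, adjusted p = 0.00108). ICAM1, the leukocyte adhesion ligand that NF-kB induces, was the 1 that rose, at 12.3, 16.8 and 12.4 CPM untreated and 109.9, 121 and 139 CPM treated (log2 fold change 3.16 ± 0.24 SE, adjusted p = 1.37e-09). All 3 were without overlap, while ITGA5, of the fibronectin receptor, was at 168, 175 and 147 CPM untreated and 165, 176 and 169 CPM treated (log2 fold change 0.05 ± 0.11 SE, adjusted p = 0.81), with a 95% interval of -0.19 to 0.30. Of 27 TGF-beta and activin genes 6 rose and 6 fell (22.2% each), and of 14 Notch genes 5 rose and 1 fell. Of 13 genes for ERBB receptors and EGF family ligands 3 rose and 1 fell. Among all genes at 1 CPM or more 19.7% were higher and 19.3% lower, near the TGF-beta shares. Without treated replicate 1 the TGF-beta falls came to 10, and without untreated replicate 4 the Notch rises came to 2. INHBA, the activin A subunit, was at 25.8, 24.3 and 25.9 CPM untreated and 128, 352 and 287 CPM treated (log2 fold change 3.34 ± 0.30 SE, adjusted p = 2.66e-08). BMP2, a morphogen, was at 0.387, 0.228 and 0.264 CPM untreated and 2.598, 2.502 and 2.89 CPM treated (log2 fold change 3.14 ± 0.31 SE, adjusted p = 7.21e-08). DLL4, a Notch ligand, was at 0.736, 0.685 and 0.868 CPM untreated and 9.58, 14.1 and 15.9 CPM treated (log2 fold change 4.10 ± 0.32 SE, adjusted p = 2.18e-09). For INHBA and DLL4 treated replicate 1 was the lowest treated culture, and it still lay above all untreated ones. HBEGF, AREG and EREG, ligands of the EGF receptor, rose by 1.65 ± 0.27, 1.24 ± 0.28 and 0.81 ± 0.20, whereas EGFR was at 204, 245 and 245 CPM untreated and 245, 136 and 166 CPM treated (log2 fold change -0.35 ± 0.28 SE, adjusted p = 0.392). Of 26 Wnt genes 1 rose and 7 fell (12 without treated replicate 1, 4 and 3 without treated replicates 3 and 4), and LGR4, a receptor that strengthens Wnt signals, fell by 1.46 on the log2 scale. SERPINB2, an inhibitor of urokinase, was at 2.09, 4.48 and 15.2 CPM untreated and 29.9, 79.8 and 217 CPM treated (log2 fold change 3.90 ± 0.68 SE, adjusted p = 0.000188). In SERPINB2 replicate 4 held the highest level both before and after treatment, and the groups did not overlap. Of 14 mesenchymal genes 3 rose and 3 fell (median 0.00), and of 17 urothelial and epithelial genes 0 rose and 4 fell. Only 12 and 9 of these had a T24 mean of at least 1 CPM, so the shares of calls are over many silent genes. TWIST1, TWIST2 and GRHL2 had no read in T24 and could not be called. Among the called members, the EMT factor SNAI1 went from 1.63, 1.01 and 1.02 to 6.33, 12.01 and 7.58 CPM, the mesenchymal list's CAV1 fell as given above, and the epithelial keratin gene KRT19 went from 375, 451 and 447 to 203, 66.3 and 99.2 CPM. The mesenchymal falls came to 6 with no count filter or with a replicate block and to 2 without untreated replicate 4, without treated replicate 4, without the CLS-439 libraries or in the fit on T24 alone, and the epithelial falls to 7 without treated replicate 1.

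Long genes fell more often than short ones. By the span from first to last annotated base (GENCODE 29), 10.01% of genes under 10 kb and 65.0% of genes of 500 kb or more were lower, among genes at a T24 mean of at least 1 CPM. The shares higher in these bins were 23.4% and 5.13%. The bins between lay in order, with 14.3% lower at 10 to 50 kb, 23.3% at 50 to 100 kb, 33.2% at 100 to 200 kb and 50.8% at 200 to 500 kb. The median log2 fold change of the 117 genes of 500 kb or more was -1.33, and over all 245 tested genes of that span, those under 1 CPM included, -0.91. Within genes at 10 to 100 CPM the shares lower were 9.39% under 10 kb and 70.4% at 500 kb or more. Summed exon length gave a smaller gradient, from 10.5% lower under 1 kb to 28.5% at 8 kb or more. Genes of 200 kb or more took 3.96% ± 0.27 of reads in untreated and 2.81% ± 0.35 in treated libraries (SD, n = 3, exact two-sided permutation test p = 0.1, the smallest possible).

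**Figure D3:**
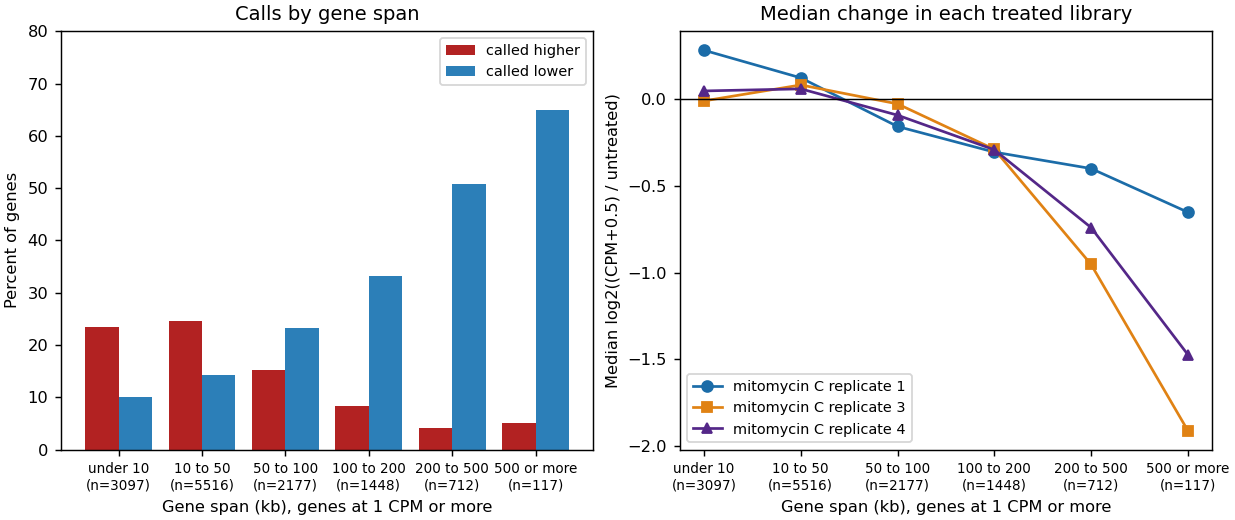
Left, percent of genes called higher or lower in T24 by gene span, for genes at a T24 mean of at least 1 CPM, with the number of genes under each bin. Right, median log2 ratio of each treated library to the untreated mean in the same bins: in the shortest bin the 3 cultures lie between -0.01 and 0.28, and in the longest between -0.65 (replicate 1) and -1.91 (replicate 3).

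Of the 6 genes of at least 500 kb with the highest untreated level, 5 fell and 1 was not called. PRKCA, protein kinase C alpha (508 kb), was at 133, 147 and 164 CPM untreated and 69.9, 14.1 and 28.6 CPM treated (log2 fold change -1.98 ± 0.40 SE, adjusted p = 0.000722). THSD4, a matrix protein gene (686 kb), was at 114, 109 and 99.9 CPM untreated and 50.02, 11.3 and 14.6 CPM treated (log2 fold change -2.09 ± 0.43 SE, adjusted p = 0.000769). SPOCK1, a secreted proteoglycan gene (623 kb), was at 290.4, 317 and 241 CPM untreated and 137, 126 and 77.6 CPM treated (log2 fold change -1.32 ± 0.25 SE, adjusted p = 0.000405). In PRKCA and THSD4 treated replicate 1 kept the most RNA, while in SPOCK1 it was close to replicate 3. NAV2 (771 kb) and ERC1 (505 kb) fell in the same order of cultures, 85.4, 12.6 and 32.4 and 90.7, 27.1 and 50.4 CPM treated against 118, 123 and 128 and 116, 126 and 139 CPM, but both calls ended when treated replicate 3 or 4 or any untreated library was left out (adjusted p 7.37e-14 to 0.14 and 1.14e-09 to 0.187 over the alternative fits). DLC1 (521 kb), a GTPase-activating protein, was at 146, 177 and 205 CPM untreated and 230.2, 173 and 199 CPM treated (log2 fold change 0.19 ± 0.15 SE, adjusted p = 0.383). The long genes among the falls beyond the most extreme included DIAPH2, a formin (920.3 kb, -2.71), LPP, a focal adhesion protein (737 kb, -2.41), MSI2, an RNA-binding protein (429 kb, -2.69), and PTPRM, a receptor phosphatase (840.1 kb, -2.53).

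Genes named ZNF encode zinc finger proteins, many of them transcriptional repressors with gene clusters on chromosome 19. Of 479 tested 181 rose and 23 fell (median 0.46), against 15.2% and 13.4% of all genes. On chromosome 19 101 of 237 rose and 2 fell, and on other chromosomes 80 of 242 rose and 21 fell, while of the other 1132 tested genes of chromosome 19 223 rose and 44 fell. Against genes of like span (10 to 50 kb, at least 1 CPM), 43.2% of ZNF genes and 23.6% of the others were higher. ZNF genes took 0.674% ± 0.045 of reads in untreated and 0.963% ± 0.20 in treated libraries (SD, n = 3, exact two-sided permutation test p = 0.1). The shift was not seen in the median of treated replicate 1: the median in the single treated libraries was 0.00, 0.60 and 0.43, and 241 genes rose without it, 112 without treated replicate 3 and 92 in the fit on T24 alone. ZNF670 was at 4.18, 3.88 and 5.55 CPM untreated and 10.9, 55.1 and 34.5 CPM treated (log2 fold change 2.88 ± 0.38 SE, adjusted p = 5.04e-06), and ZNF844 at 5.66, 7.13 and 7.58 CPM untreated and 13.9, 53.9 and 38.997 CPM treated (log2 fold change 2.39 ± 0.38 SE, adjusted p = 5.24e-05). In both the lowest treated library was replicate 1, and it lay above all untreated ones.

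Other RNA classes differed too. Among genes at 1 CPM or more, 26.1% of antisense genes were higher and 6.33% lower, 33.7% and 1.81% of transcribed unprocessed pseudogenes, 5.88% and 18.0% of processed pseudogenes, and 19.6% and 20.4% of protein-coding genes. The sources used here do not give the strand setting of the counting, so reads of an antisense gene and its partner may be mixed, as may those of a pseudogene and its parent. Of 16 host genes of small nucleolar RNAs, whose own spliced RNAs are quickly degraded, 9 rose and 4 fell. SNHG5 was at 15.7, 16.6 and 18.1 CPM untreated and 60.1, 50.4 and 56.6 CPM treated (log2 fold change 1.73 ± 0.14 SE, adjusted p = 3.2e-09). ZFAS1 was at 45.7, 49.99 and 49.4 CPM untreated and 183, 112 and 121 CPM treated (log2 fold change 1.52 ± 0.17 SE, adjusted p = 4.36e-07). GAS5 was at 107, 111 and 125 CPM untreated and 224, 148 and 185 CPM treated (log2 fold change 0.70 ± 0.14 SE, adjusted p = 0.000577). Treated replicate 1 held the highest level of all 3, and the list's median was 1.00, 0.18 and 0.51 in the treated libraries. Of 34 replication-dependent histone genes 10 rose and 0 fell, in libraries of polyadenylated RNA, which holds little of their RNA. Only 11 of the 34 had a T24 mean of at least 1 CPM. When any library other than treated replicate 1 was left out 5 or 6 rose, and in the fit on T24 alone 4. Their median in treated replicates 1, 3 and 4 was -0.04, 0.57 and 0.29. Mitochondrially encoded genes took 3.69% ± 0.42 of untreated and 3.72% ± 0.44 of treated reads (SD, n = 3), and 4 of 13 mitochondrial protein genes fell (3 to 8 over the alternative fits, 8 of them in the fit that left CLS-439 out).

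The treated cultures differed in how far they moved. Among the 2559 falling genes without overlap, treated replicate 1 lay nearest to the untreated mean for 1437 (56.2%), replicate 3 for 806 and replicate 4 for 316, and among 482 such genes of 200 kb or more replicate 1 was nearest for 379 (78.6%). It was not simply the least changed culture: its medians were the largest of the 3 for the interferon, stress response, snoRNA host and mitosis lists, as the plot of list medians shows. The same-numbered treated libraries of 5637 and TCC-SUP deviated from their own group means with T24's: over genes (a description, since the points share libraries) the correlations were 0.533 and 0.434 for replicate 1, 0.409 and 0.232 for replicate 3, and 0.14 and 0.117 for replicate 4. Beyond leaving libraries out, the part of the replicate number in these results was not tested across lines. A fit with the number as a block within each line shifts treated and untreated libraries alike. It cannot take up a deviation of treated libraries alone.

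**Figure D4:**
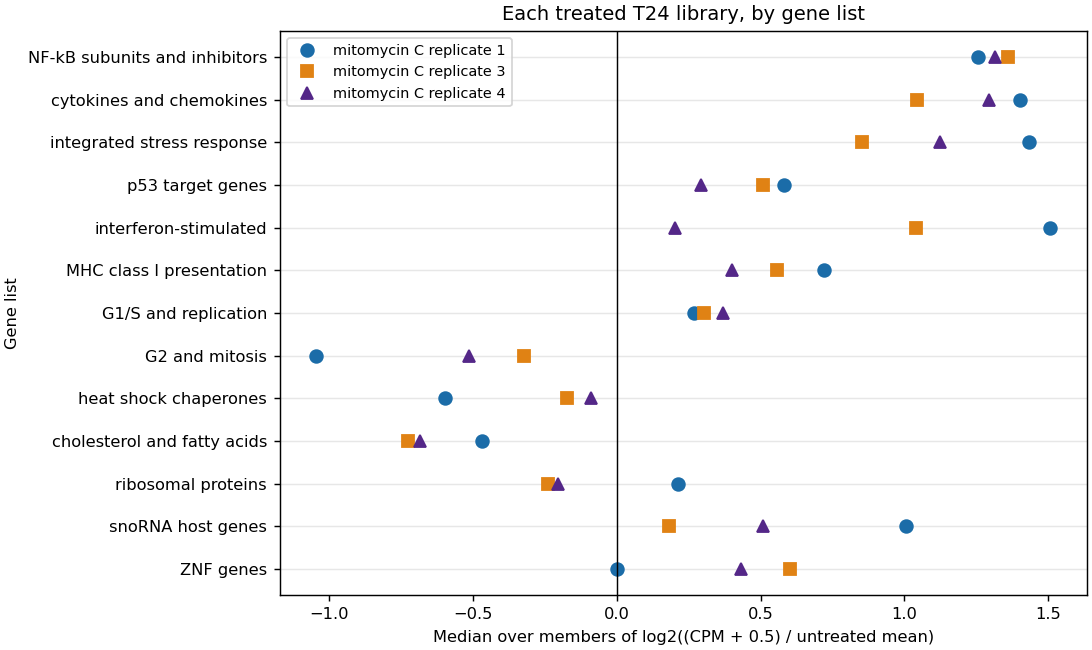
Median over the members of 13 gene lists of the log2 ratio of each treated T24 library to the untreated mean, on log2(CPM + 0.5); each symbol is 1 treated culture. Replicate 1 lies furthest out for the mitosis list (-1.04) and the interferon list (1.51) and at 0.00 for ZNF genes, while the 3 NF-kB medians lie between 1.25 and 1.36.

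How far the response of T24 differs from that of 5637 and TCC-SUP, 2 other bladder cancer lines given the same treatment, was tested as the difference of the log2 fold changes. Against 5637, 722 genes (3.47%) differed, 369 (1.77%) higher and 353 (1.70%) lower in T24, and against TCC-SUP 790 (3.79%), 503 (2.42%) higher and 287 (1.38%) lower. Higher than in both lines were 147 genes (0.706%), and lower than in both 71 (0.341%), each called in T24 too. Many of the 147 belong to the lists above: 8 of 23 NF-kB genes, 5 of 29 cytokine genes (CSF1, IL1A, IL1B, IL32 and IL6), 9 of 29 stress response genes, 5 of 20 tRNA synthetase genes and 6 of 16 snoRNA host genes. Against TCC-SUP alone, 23 of 29 stress response genes were higher in T24. In TCC-SUP 2 of these genes rose and 9 fell, with a median of -0.41 against 1.15 in T24. Lower than in TCC-SUP were 10 of 38 mitotic genes and 3 lipid genes (INSIG1, MSMO1 and SCD), but against 5637 2 mitotic genes and 0 lipid genes. Of 40 interferon-stimulated genes 9 were higher and 0 lower than in TCC-SUP, and 5 were higher and 1 (HERC5) lower than in 5637. These counts depended on the libraries in the fit (579 higher than in 5637 without treated replicate 1, and 225 and 234 without untreated replicates 1 and 3).

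The genes that differed most from both lines were named by rank. RELB, the NF-kB subunit of the alternative pathway, was at 3.22, 2.38 and 2.91 CPM untreated and 67.1, 46.6 and 65.5 CPM treated in T24, where it rose by 4.39 ± 0.22 (log2, SE). In 5637 it was at 39.2, 36.2 and 37.8 CPM untreated and 86.5, 56.5 and 64.6 CPM treated, and in TCC-SUP at 6.43, 8.05 and 8.13 and 16.5, 23.04 and 18.4 CPM. The T24 response was the larger by 3.52 ± 0.28 SE, adjusted p = 3.2e-08, and 3.03 ± 0.28 SE, adjusted p = 3.31e-07. NEDD9, a scaffold of focal adhesion signalling, was at 1.24, 0.503 and 1.09 CPM untreated and 17.97, 12.6 and 14.8 CPM treated (log2 fold change 3.97 ± 0.26 SE, adjusted p = 9.74e-11) in T24 and changed by 0.10 ± 0.20 in 5637 and 0.13 ± 0.20 in TCC-SUP. DUSP10 changed by -0.02 ± 0.15 and 0.21 ± 0.16 there, and INHBA by 0.17 ± 0.27 and 0.41 ± 0.28. PTGS2, the inducible cyclooxygenase, and TNFAIP3, the ubiquitin-editing inhibitor A20, rose in all 3 lines, and more in T24: by 4.81 ± 0.33 against 1.38 ± 0.27 and 1.25 ± 0.28, and by 4.38 ± 0.28 against 1.34 ± 0.25 and 1.45 ± 0.25. On the other side SOX9, a transcription factor of progenitor cells, was at 106, 84.2 and 71.6 CPM untreated and 53.5, 25.8 and 23.1 CPM treated (log2 fold change -1.36 ± 0.28 SE, adjusted p = 0.000816) in T24, against changes of 0.11 ± 0.27 and 0.22 ± 0.28. SLC5A3, the inositol transporter, EEF1E1, a scaffold of the tRNA synthetase complex, HIGD1A, a mitochondrial hypoxia-induced protein, and ALG6, a glucosyltransferase of protein glycosylation, fell by 1.63, 1.67, 1.597 and 1.28 in T24, without overlap.

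**Figure D5:**
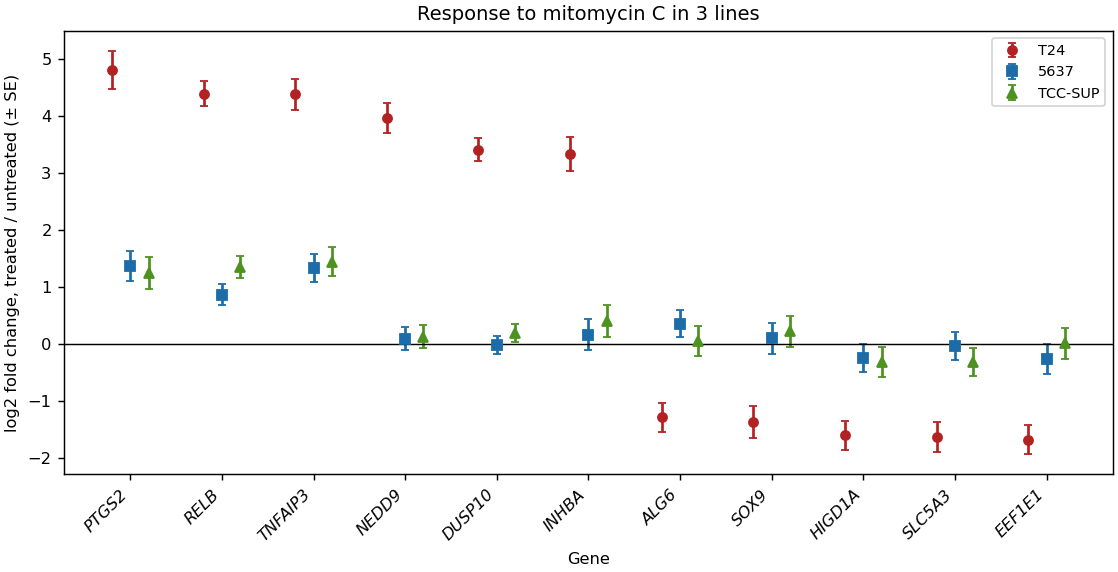
Log2 fold change after mitomycin C, with its standard error, in T24, 5637 and TCC-SUP for 11 genes whose T24 response differed most from both other lines. In T24 the 6 genes on the left lie between 3.34 and 4.81, above both other lines, and the 5 on the right between -1.67 and -1.28, below them.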

How the data were processed

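RNA was sequenced from 24 cultures, and per the labels' protocols libraries were made with a stranded polyadenylated-RNA kit. The deposited table gives the authors' raw counts per gene; per the submitters' processing notes the genome build was GRCh38 and the tools were STAR 2.5.3a and featureCounts 1.6.2. The strand setting and the annotation release are not given in the sources of this report. All 24 libraries were fitted with edgeR 4.0.16 (R 4.3.3): genes kept by filterByExpr, TMM scaling, a mean for each of 8 groups, robust quasi-likelihood tests and Benjamini-Hochberg adjustment over all genes tested. All adjusted p-values in the text come from these tests unless another tool is named. CPM values are counts over each library's TMM-scaled total, except the summed marker levels and the shares of reads, which use the plain totals. Intervals are 95% confidence intervals of the log2 fold change. Genes with 3 cultures per group were called non-overlapping when all treated values lay on one side of all untreated values. Ratios of single libraries used log2(CPM + 0.5). Positions and spans came from GENCODE 29 and promoters from RefSeq (GRCh38.p14). Promoters on chromosome 8 were left out of the motif searches. The test was checked on simulated data. Alternatives were DESeq2 1.42.0, RLE size factors, no count filter, T24 libraries only, no CLS-439 libraries, a replicate block within each line and leaving out each T24 library. The members and gene lists were chosen with earlier results of these data known. Named genes were each list's fixed anchors and up to 4 called members with the largest change, ranks 9 to 20 of the rises and falls, the 8 most abundant genes in each direction changed at least 2-fold, the 6 in each direction that differed most from both other lines, and the 6 most abundant genes of 500 kb or more, of which not all are printed and some are not reported here. Depth, 19550429 to 28821665 counted reads in T24, limits the precision of genes under 1 CPM.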

Additional observations from a re-analysis of the deposited data

Results flagged for a closer look

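Differences between cell lines under the same treatment marked the following results. The T24 response differed from that of 5637 in 722 genes and from that of TCC-SUP in 790 genes, by edgeR's quasi-likelihood test of the difference between log2 fold changes. Among the named genes higher in T24 than in both lines, the difference from 5637 and from TCC-SUP was 3.87 and 3.83 for NEDD9, 3.43 and 3.56 for PTGS2, 3.43 and 3.21 for DUSP10, 3.52 and 3.03 for RELB, 3.04 and 2.93 for TNFAIP3 and 3.17 and 2.93 for INHBA. Among those lower in T24 it was -1.46 and -1.58 for SOX9, -1.42 and -1.69 for EEF1E1, -1.65 and -1.34 for ALG6, -1.59 and -1.31 for SLC5A3 and -1.35 and -1.29 for HIGD1A.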

How the results depend on the processing

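The T24 counts of 3162 higher and 2785 lower stayed within 1.5 times under DESeq2 (3338 and 2754), RLE size factors (3292 and 2638), no count filter (2934 and 2853) and no CLS-439 libraries (2830 and 2530), and ranged over 2404 to 3584 and 1961 to 3383 when single T24 libraries were left out. The T24 libraries alone gave 1907 and 1663, with fewer residual degrees of freedom. Between treated and untreated T24 the replicate numbers were not taken as pairs (correlations of deviations 0.248, -0.0764 and 0.258 for replicates 1, 3 and 4), and a replicate block gave 3253 and 3190. Treated cultures of the same number deviated together across lines (0.117 to 0.533), untreated ones less so (-0.0348 to 0.107). The block, set within each line and shared by treated and untreated cultures, cannot take up deviations of treated cultures alone. It gave 451 higher and 472 lower against 5637 and 603 and 363 against TCC-SUP. Of 377 named genes the block ended 6 calls and added 5, while the fit on T24 alone ended 52 of 361. Differences from 5637 (369 higher and 353 lower) came to 741 and 685 with DESeq2 and 234 and 222 without CLS-439, and to 225 to 579 and 184 to 559 without single T24 libraries. Differences from TCC-SUP (503 and 287) came to 851 and 525 with DESeq2, to 143 lower without CLS-439, and to 312 to 655 and 133 to 451 without single libraries. The cause of these shifts was not tested. The median of all tested genes of 500 kb or more (-0.91) was -0.045 with no count filter, which adds genes with hardly any reads, -0.26 over as many genes with the longest summed exons, and -0.76 to -1.29 without single libraries. That of genes of 200 to 500 kb (-0.60) ranged from -0.51 to -0.81 without single libraries, the extremes being treated replicates 3 and 1.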
